A study of Mus musculus with 10 samples.

Results

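The 9 genes described here serve acid and base transport in the intercalated cells of the kidney collecting duct, and were followed in whole kidneys from old mice with an active form of the GTPase RagC and from wild-type controls. They were taken by gene symbol from the table of normalized counts, which lists 13299 genes and holds all 9: the anion exchangers Slc4a1, Slc4a9 and Slc26a4, the V-ATPase subunits Atp6v1b1, Atp6v0d2 and Atp6v1g3, the transcription factor Foxi1, the carbonic anhydrase Car2 and the ammonia channel Rhcg. The kidneys came from 5 heterozygous mice, Rragc S74N/+ (labelled RagC S74N (KI/+)), and 5 wild-type mice, Rragc +/+, all aged 1.5 years. The S74N change was knocked into the germline with Cas9, so it sits in every cell type of the kidney and in blood and immune cells, together with silent changes made by the repair template. No treatment was given, the labels give no sex, and they do not tie the samples to litters or days, so p-values measure the spread between these samples.

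Intercalated cells are scattered among the principal cells of the connecting tubule and collecting duct and adjust blood pH. Type A cells secrete acid through the V-ATPase, a proton pump in their apical membrane, and return bicarbonate to the blood through the chloride-bicarbonate exchanger AE1, the product of Slc4a1. Type B cells secrete bicarbonate through pendrin, the product of Slc26a4, and carry AE4, the product of Slc4a9, on the opposite side. The V-ATPase is also found in lysosomes of all cells, where mTORC1, the kinase that RagC helps to switch on, is recruited, and intercalated cells use some subunits that other cells mostly lack.

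Libraries were primed from the poly(A) tail, so a value counts mRNA 3′ ends, scaled by the authors to the depth of each sample, and does not grow with transcript length. The sum of normalized counts ran from 4473981 to 5087152 over the 10 samples, and the 8 samples whose reads could be recovered held 4488493 to 5797251 reads. The tissue label was borne out by 7 proximal tubule markers, whose summed level lay between 28425 and 37489 normalized counts in all 10 samples. Changes are given as log2 changes, that is log2 fold changes on log2(normalized count + 1), Rragc S74N/+ minus Rragc +/+, with the standard error and a p-value that limma adjusted over all 13236 tested genes at a threshold of 0.05. By that test 6.03% of all tested genes were called, 3.45% as higher and 2.58% as lower in Rragc S74N/+, and for 8.16% the groups of 5 samples did not overlap. Of the calls 57.3% were higher, a share that rose to 76.1% when library totals were set equal and to 68.9% when sums without mitochondrial genes were.

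Promoter sequences from RefSeq (mouse build GRCm38.p6, 250 bases before to 50 after the start site) were matched for 5 of the 9 members, namely Slc26a4, Atp6v1b1, Atp6v1g3, Foxi1 and Rhcg, and for 13 of 18 subunits of the V-ATPase that all cells share. Slc4a1, Slc4a9, Atp6v0d2 and Car2 had no entry. Foxi1 is a forkhead factor, and TFEB, a transcription factor that mTORC1 holds in the cytoplasm, binds E-boxes, so both strands were searched for the forkhead letters TGTTTAC and TGTTTGC and for the E-box letters TCACGTG. Only the promoter of Atp6v1b1 among the 5 held any of the 3 motifs, namely TGTTTAC 98 bases before its start site, against 3.65% of all 32851 promoters with TGTTTAC and 8.48% with either forkhead motif. TCACGTG was in 0 of 5 member promoters and in 4 of the 17 windows of the ubiquitous subunits (23.5%), against 3.77% of all promoters. The 5 promoters with a match are shown, since Atp6v1b1 and the 4 ubiquitous subunits return among the results. A match is not a known binding site, and its absence says only that these letters are not in the window. The sequences are stretches of 60 bases on the strand of the gene, with the matched letters in capitals. A run of 8 capitals is a match on both strands that overlap by 6 bases. The member comes first, at chr6:83742892-83742951 on the plus strand.
Atp6v1b1: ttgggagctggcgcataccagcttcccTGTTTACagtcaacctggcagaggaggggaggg
The 4 ubiquitous subunits lie at chr16:44139359-44139418 (minus), chr4:117887334-117887393 (minus), chr8:105566036-105566095 (minus) and chr17:26676366-26676425 (plus).
Atp6v1a: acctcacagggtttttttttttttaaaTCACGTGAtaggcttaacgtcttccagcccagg
Atp6v0b: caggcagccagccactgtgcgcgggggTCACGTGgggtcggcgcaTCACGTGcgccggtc
Atp6v0d1: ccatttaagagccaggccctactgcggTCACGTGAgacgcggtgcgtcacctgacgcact
Atp6v0e: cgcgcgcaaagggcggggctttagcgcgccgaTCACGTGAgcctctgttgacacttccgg

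All 9 members passed the filter on low values, and 2 of them differed between the genotypes, 1 lower (Slc4a1) and 1 higher (Slc26a4). By the same test 6.03% of all tested genes were called. The remaining 7 did not pass, and 3 of the 9 had an unadjusted p under 0.05, as did 3360 of all 13236 tested genes. The groups did not overlap for 1 member, Slc4a1, and for 8.16% of all tested genes. The median log2 change of the 9 was -0.27, against -0.013 over all tested genes, with 7 values below 0 and 2 above. In bulk tissue, fewer cells of a type and less RNA per cell cannot be told apart.

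**Figure D1:**
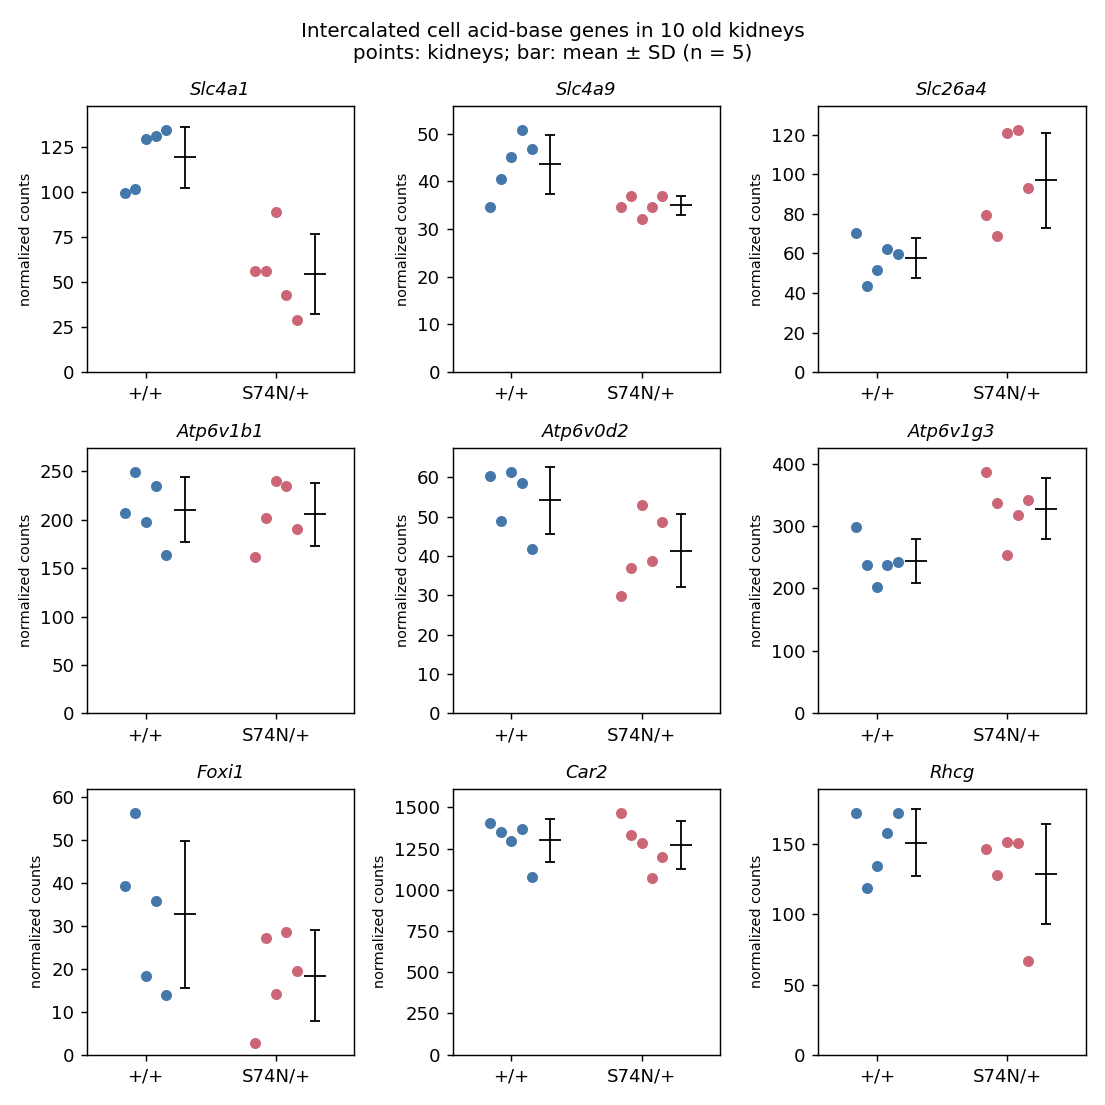
Normalized counts (y axis, from 0) of the 9 members in each kidney of the 5 Rragc +/+ and 5 Rragc S74N/+ mice, with the mean and SD of each group beside the points. Slc4a1 is the gene whose groups are apart (29.1 to 89.0 against 99.6 to 134 normalized counts), while the points of Atp6v1b1 and Car2 cover the same range in both genotypes.

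The exchangers moved apart from each other. Slc4a1, the basolateral exchanger of type A cells, had 99.6, 102, 129.6, 131 and 134 normalized counts in Rragc +/+ replicates 1 to 5. In Rragc S74N/+ replicates 1 to 5 it had 56.0, 56.2, 89.0, 42.8 and 29.1. Every Rragc S74N/+ kidney was thus below every Rragc +/+ kidney, and the spread was wider in Rragc S74N/+, where replicate 3 was nearest to the wild-type range and replicate 5 farthest from it. The mean fell from 119 ± 17.0 to 54.6 ± 22.2 (± SD, 5 kidneys each), a log2 change of -1.19 ± 0.24 (SE, limma adjusted p = 0.00918). An exact two-sided permutation test gave p = 0.00794, the smallest that 5 against 5 samples allow. Slc4a1 passed in each of the 10 fits that left out 1 sample, with log2 changes from -1.39 to -0.99 (limma adjusted p from 0.00176 to 0.030).

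Slc4a1 also encodes the band 3 protein of red blood cells, whose longer form shares its 3′ end with the kidney form, so a 3′ count does not separate them. Erythroid markers were therefore read beside it. Of 8 such markers 5 were tested (Hba-a1, Hba-a2, Hbb-bs, Hbb-bt and Alas2), and the others were not analysed here. All 5 had log2 changes below 0, from -1.62 to -0.73, and 0 passed the threshold (limma adjusted p from 0.061 to 0.225, 4 with an unadjusted p under 0.05), and none was at 0 in any sample. Their summed level, nearly all of it globin, ran from 11780 to 28434 normalized counts in Rragc +/+ and from 2739 to 13753 in Rragc S74N/+ kidneys, so the groups overlapped. With log2 of the erythroid sum as a second term, an alternative chosen after the data were seen, the log2 change of Slc4a1 was -1.29 ± 0.29 (SE, limma adjusted p = 0.035). The slope of Slc4a1 on that term was -0.091 (limma adjusted p = 0.83). In that sum Rragc S74N/+ replicate 1, at 2739, lay far from the rest of its group, at 10933 to 13753 normalized counts. The part of red cell RNA in the fall of Slc4a1 was not tested.

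**Figure D2:**
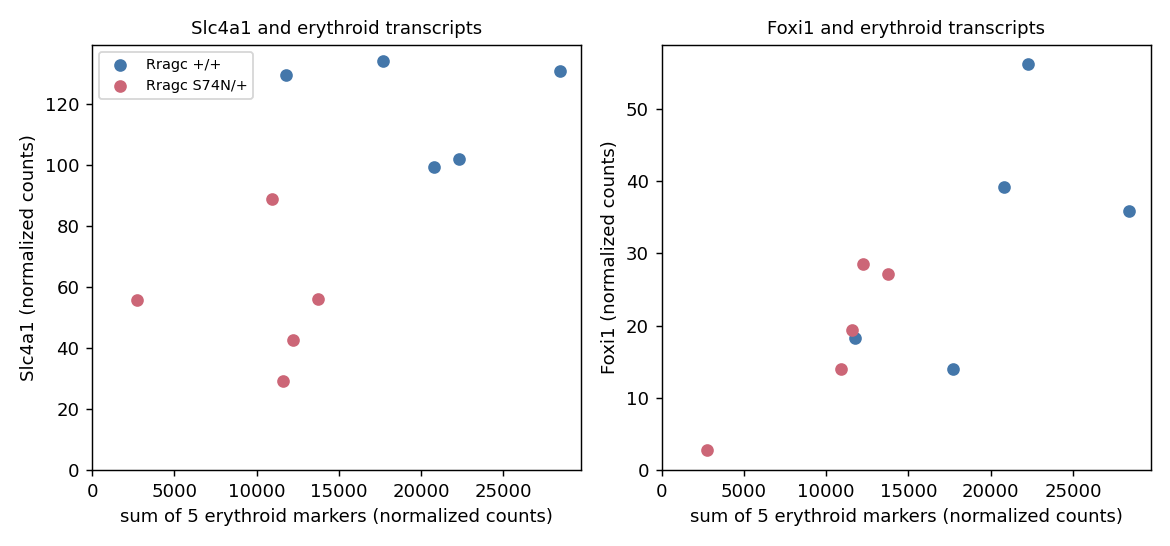
Normalized counts of Slc4a1 (left) and Foxi1 (right) against the sum of 5 erythroid markers in normalized counts, 1 point per kidney, both axes from 0. At erythroid sums between 10933 and 13753 normalized counts, the 4 Rragc S74N/+ kidneys had 29.1 to 89.0 counts of Slc4a1 and the single Rragc +/+ kidney there had 129.6. That window is the range of these 4 kidneys, and with 1 Rragc +/+ kidney in it the genotypes were not tested there. The kidney with the lowest sum, Rragc S74N/+ replicate 1, also had the lowest Foxi1.

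Slc26a4, which encodes pendrin on the luminal side of type B cells, changed in the opposite direction. Its normalized counts were 70.5, 43.7, 51.8, 62.0 and 59.7 in Rragc +/+ replicates 1 to 5 and 79.3, 68.8, 121, 122 and 93.3 in Rragc S74N/+ replicates 1 to 5. Of the Rragc S74N/+ kidneys 4 of 5 lay above all wild-type kidneys, and replicate 2 fell just below Rragc +/+ replicate 1. The mean rose from 57.5 ± 10.2 to 96.9 ± 24.2 (± SD, 5 kidneys each), a log2 change of 0.72 ± 0.20 (SE, limma adjusted p = 0.040), with an exact permutation p of 0.016. This call was close to the threshold. It held without Rragc S74N/+ replicate 1 or 2 and was lost when any of the other 8 samples was left out, with limma adjusted p from 0.055 to 0.114 and log2 changes from 0.63 to 0.80. On the 8 samples with recovered reads it passed neither in edgeR (adjusted p = 0.085) nor in DESeq2 (0.067), and it did not pass in limma with the erythroid sum as a term (0.85, adjusted p = 0.114).

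Slc4a9, the exchanger AE4 of type B cells, did not follow Slc26a4. It had 34.7, 40.6, 45.1, 50.7 and 46.8 normalized counts in Rragc +/+ and 34.5, 36.8, 31.99, 34.6 and 36.9 in Rragc S74N/+ replicates 1 to 5. The mutant values sat close together at the low end of the wild-type range, 3 of 5 below all wild-type values. Of these 3, the values 34.5 and 34.6 lay only just below the lowest wild-type value of 34.7. The log2 change of -0.30 ± 0.18 (SE) did not pass (limma adjusted p = 0.32), and its 95% interval ran from -0.69 to 0.090. An exact permutation test of this gene alone gave an unadjusted p of 0.024.

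Ratios between genes of the same kidney hardly depend on how a sample was scaled, and 6, as differences of log2(normalized count + 1), were tested by exact permutation with p-values adjusted over the 6. A ratio is read here as a change between genotypes and not as a comparison of the levels of both genes. It uses the same values as the tests of single genes, so it is not separate support for them. Slc4a1 alone had already given the smallest p that the permutation allows. Slc26a4 had 0.400 to 0.708 normalized counts for each count of Slc4a1 in Rragc +/+ kidneys and 1.22 to 3.20 in Rragc S74N/+ kidneys, with no overlap. On the log2 scale this ratio rose from -1.05 ± 0.32 to 0.87 ± 0.64 (± SD, 5 kidneys each), a difference of 1.92 (exact permutation p = 0.00794, adjusted p = 0.024). It was higher in both ranges of the number in the sample titles, by 1.41 in the lower range (3 samples per genotype) and by 2.68 in the upper range (2 per genotype). Slc4a9 rose relative to Slc4a1 by 0.89 on the log2 scale (exact permutation p = 0.024, adjusted p = 0.036), although Rragc S74N/+ replicate 3 stayed at -1.45, within the wild-type range of -1.50 to -1.31. The difference was 0.53 in the lower range of title numbers and 1.44 in the upper. The 2 genes of type B cells also parted, and Slc26a4 rose relative to Slc4a9 by 1.02 (exact permutation p = 0.016, adjusted p = 0.032).

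**Figure D3:**
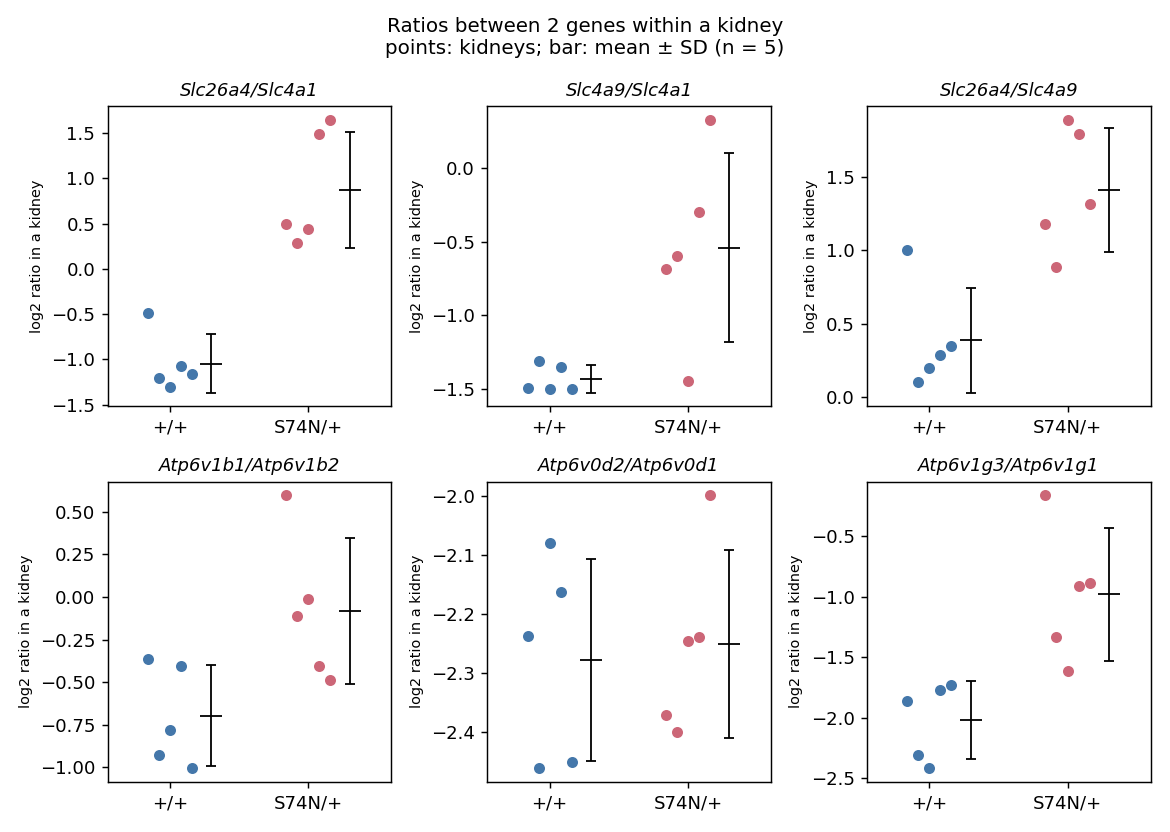
Log2 ratio between 2 genes in each kidney for 6 pairs, with the mean and SD (n = 5) of each genotype beside the points; the y axes differ and do not start at 0. The groups are apart for Slc26a4/Slc4a1 and Atp6v1g3/Atp6v1g1, and Atp6v0d2/Atp6v0d1 has nearly the same mean in both genotypes (-2.28 and -2.25).

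The V-ATPase subunits that intercalated cells favour did not move as 1 group. Atp6v1b1, the B1 subunit of the catalytic part, whose loss causes distal renal tubular acidosis in people, had 207, 249.7, 197.7, 235 and 163 normalized counts in Rragc +/+ and 161, 201.6, 239.9, 235 and 190.4 in Rragc S74N/+ replicates 1 to 5. Both genotypes covered the same range, and the log2 change was -0.033 ± 0.15 (SE, limma adjusted p = 0.92) with a 95% interval from -0.35 to 0.28. Its sign turned with the scaling of the samples, to 0.046 with equal library totals. Atp6v1g3, the G3 subunit of the stalk, had 299, 237, 201.6, 237.5 and 243 normalized counts in Rragc +/+ and 387, 337, 253, 318 and 342 in Rragc S74N/+ replicates 1 to 5. Rragc S74N/+ replicate 3 was the only mutant kidney inside the wild-type range. The log2 change of 0.42 ± 0.14 (SE) did not pass over all genes (limma adjusted p = 0.076), while an exact permutation test gave an unadjusted p of 0.016. It passed with equal library totals (0.50, limma adjusted p = 0.036), with sums without mitochondrial genes set equal (0.46, 0.048) and without Rragc S74N/+ replicate 3 (0.51, 0.036), and in DESeq2 on the 8 samples with recovered reads (0.51, adjusted p = 0.028).

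Atp6v0d2, the d2 subunit of the membrane part, is also made by osteoclasts and macrophages. It had 60.4, 48.9, 61.4, 58.5 and 41.8 normalized counts in Rragc +/+ and 29.8, 36.8, 53.0, 38.7 and 48.6 in Rragc S74N/+ replicates 1 to 5. The groups overlapped, with 3 of 5 mutant kidneys below all wild-type kidneys, and the log2 change of -0.39 ± 0.20 (SE) did not pass (limma adjusted p = 0.23, 95% interval -0.82 to 0.034). Macrophage markers were read beside it. Of 10, 9 were tested (Gpnmb was not analysed here), and 3 were higher (Ctss, Lyz2 and C1qb), 0 were lower and 6 did not pass, with 7 log2 changes above 0 and 2 below. The summed level of the 9 was 730 to 930 normalized counts in Rragc +/+ and 1181 to 1604 in Rragc S74N/+ kidneys. Of 5 osteoclast markers, Acp5 was tested (log2 change -0.034, limma adjusted p = 0.91), and Ctsk, Ocstamp, Dcstamp and Mmp9 were not analysed here.

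Each cell-specific subunit has a counterpart that all cells use. Atp6v1g1, the counterpart of Atp6v1g3, fell from 993 ± 171 to 658 ± 163 normalized counts (± SD, 5 kidneys each, log2 change -0.61 ± 0.17 (SE), limma adjusted p = 0.042). The log2 ratio Atp6v1g3/Atp6v1g1 was -2.41 to -1.73 in Rragc +/+ and -1.61 to -0.16 in Rragc S74N/+ kidneys, and its mean rose by 1.04 with no overlap (exact permutation p = 0.00794, adjusted p = 0.024). Atp6v1b2, the counterpart of Atp6v1b1, had a log2 change of -0.65 ± 0.23 (SE, limma adjusted p = 0.105), and the ratio Atp6v1b1/Atp6v1b2 rose by 0.61 (exact permutation p = 0.040, adjusted p = 0.048). That ratio was highest in Rragc S74N/+ replicate 1, and its call was lost in 7 of the 10 sets that left out 1 sample, where the increase lay between 0.44 and 0.71 over all 10 sets. The difference was 0.85 in the lower and 0.26 in the upper range of title numbers. Atp6v0d1, the counterpart of Atp6v0d2, had a log2 change of -0.42 ± 0.13 (SE, limma adjusted p = 0.070), similar in size to that of Atp6v0d2, and their ratio differed by 0.027 (exact permutation p = 0.80, adjusted p = 0.80).

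Foxi1 is the forkhead factor that specifies intercalated cells and switches on exchanger and pump genes. Its normalized counts were 39.2, 56.2, 18.2, 35.8 and 13.9 in Rragc +/+ and 2.80, 27.1, 13.997, 28.5 and 19.4 in Rragc S74N/+ replicates 1 to 5. Both groups were wide, with an SD of 52.2% of the mean in Rragc +/+ and 57.2% in Rragc S74N/+, the widest relative spread of the 9 members in each genotype, and they overlapped. The log2 change of -0.93 ± 0.51 (SE) did not pass (limma adjusted p = 0.26), and its 95% interval from -2.01 to 0.15 holds both a large fall and a slight rise. Without Rragc S74N/+ replicate 1 the log2 change was -0.42, and it was -1.59 in the lower and 0.067 in the upper range of title numbers.

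Car2, the cytosolic carbonic anhydrase that supplies protons and bicarbonate to these transporters and is also made in the proximal tubule and in red cells, had 1406, 1350, 1299, 1368 and 1080 normalized counts in Rragc +/+. In Rragc S74N/+ it had 1466, 1332, 1282, 1074 and 1199. The ranges were alike, and the log2 change was -0.035 ± 0.11 (SE, limma adjusted p = 0.88) with a 95% interval from -0.27 to 0.20, the narrowest of the 9. Its sign turned to 0.044 with equal library totals. Rhcg, the channel through which intercalated and principal cells pass ammonia to the urine, had 172, 119, 134, 158 and 172 normalized counts in Rragc +/+ and 146, 128, 152, 151 and 67.0 in Rragc S74N/+ replicates 1 to 5. Of the Rragc S74N/+ kidneys 4 of 5 lay within the wild-type range, and replicate 5 lay far below it. The log2 change was -0.27 ± 0.21 (SE, limma adjusted p = 0.43), and -0.055 without replicate 5. That kidney was also the lowest in Slc4a1.

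**Figure D4:**
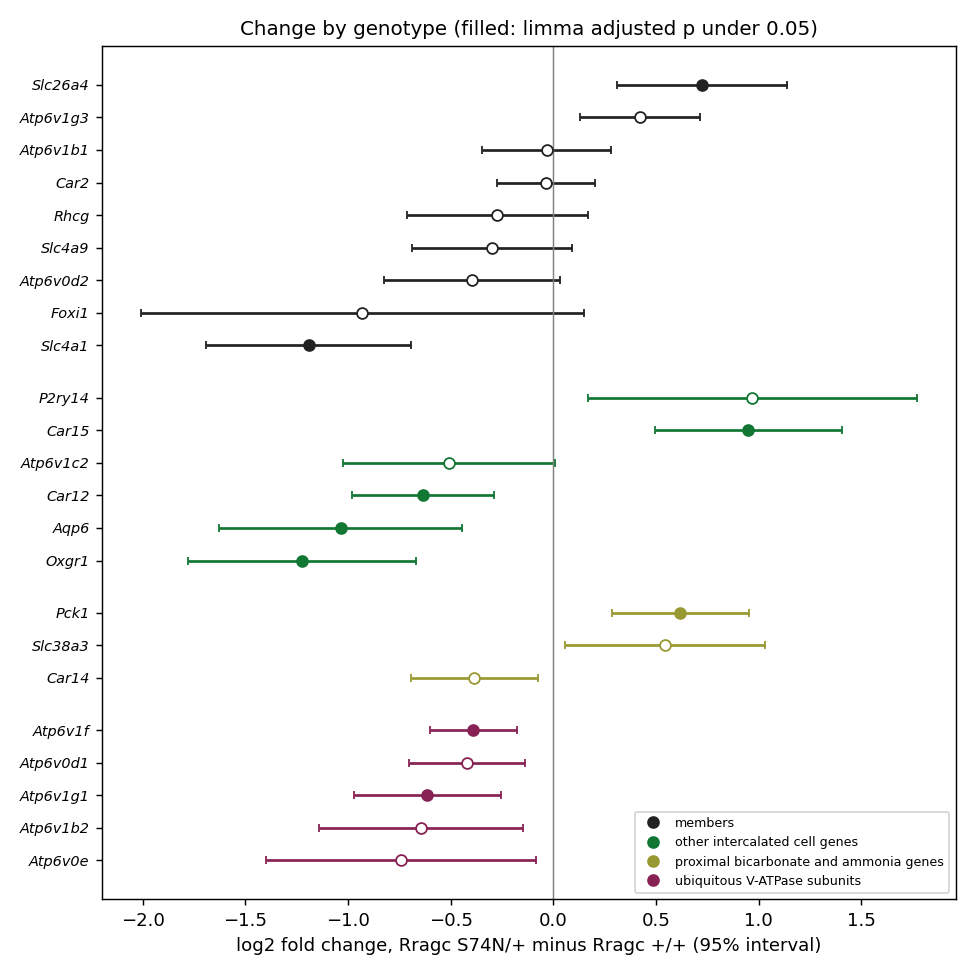
Log2 fold change with its 95% interval for the 9 members and further genes of 3 lists, filled where the limma adjusted p was under 0.05. Slc26a4 (0.72) and Slc4a1 (-1.19) stand at opposite ends of the members. The 5 ubiquitous V-ATPase subunits shown all lie below 0, but they were picked by their call, the size of their change or as counterparts. Of all 18 such subunits 15 lay below 0 and 3 above.

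Other genes of intercalated cells were read from a list of 20, of which 16 were tested and Slc26a7, Dmrt2, Adgrf1 and Atp12a were not analysed here. Of the 16, 1 was higher and 3 were lower, and 12 did not pass, with a median log2 change of -0.14. Over all tested genes 3.45% were higher and 2.58% lower. Oxgr1, the receptor for 2-oxoglutarate on type B cells, fell from 34.3 ± 8.95 to 13.8 ± 2.34 normalized counts (± SD, 5 kidneys each), and its groups did not overlap (-1.23 ± 0.26 (SE), limma adjusted p = 0.014). Aqp6, a channel in vesicles of type A cells, fell from 163 ± 56.7 to 82.4 ± 44.1 (-1.04 ± 0.28 (SE), limma adjusted p = 0.040), with Rragc S74N/+ replicate 3 at 159, inside the wild-type range. These 2 falls thus included a gene of each cell type. The membrane carbonic anhydrases parted. Car12 fell from 228 ± 36.4 to 147 ± 29.4 and Car15 rose from 33.1 ± 6.39 to 65.4 ± 15.9 normalized counts (± SD, 5 kidneys each), with limma adjusted p of 0.032 and 0.018, and for Car15 the groups did not overlap. P2ry14, a receptor for UDP-glucose on intercalated cells, had a log2 change of 0.97 ± 0.38 (SE, limma adjusted p = 0.13), and Atp6v1c2, a further subunit of the pump in these cells, of -0.51 ± 0.24 (SE, limma adjusted p = 0.20). The list's calls fell to 2 of 16 (Car15 and Oxgr1) with equal library totals, and to the same 2 without Rragc +/+ replicate 1, Rragc +/+ replicate 2 or Rragc S74N/+ replicate 5. With the erythroid sum as a term 0 of 16 passed in limma.

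Acid excretion by the collecting duct depends on ammonia made upstream, in the proximal tubule. Of 8 genes for proximal bicarbonate recovery and ammonia production, 2 were higher, 0 were lower and 6 did not pass, with a median log2 change of 0.22. The share called higher over all tested genes was 3.45%. Pck1, which starts the path from amino acid carbon to glucose, rose from 1264 ± 240 to 1949 ± 404 normalized counts (± SD, 5 kidneys each, 0.62 ± 0.16 (SE), limma adjusted p = 0.032). Slc38a3, the glutamine transporter SNAT3, had a log2 change of 0.54 ± 0.23 (SE, limma adjusted p = 0.15) and Car14, a membrane carbonic anhydrase, of -0.38 ± 0.15 (SE, limma adjusted p = 0.12). The call of Pck1 lay near the threshold and was lost without Rragc +/+ replicate 2, 4 or 5 or without Rragc S74N/+ replicate 2 or 4.

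The ubiquitous V-ATPase subunits, all 18 of them tested, gave 0 higher and 2 lower genes. Among all tested genes 2.58% were called lower. Of the 18 log2 changes 15 were below 0, with a median of -0.32, against -0.27 for the 9 members. Atp6v1f fell from 2075 ± 158 to 1583 ± 114 normalized counts (± SD, 5 kidneys each, -0.39 ± 0.10 (SE), limma adjusted p = 0.032), and Atp6v1g1 was the other. Atp6v0e, 1 of the 4 with TCACGTG in its promoter, had a log2 change of -0.74 ± 0.31 (SE, limma adjusted p = 0.15). The others of these 4 were Atp6v0d1 (-0.42, limma adjusted p = 0.070), Atp6v0b (-0.29, 0.16) and Atp6v1a (0.011, 0.97), so none of them passed in the main fit. On the 8 samples with recovered reads Atp6v0d1 passed in limma, edgeR and DESeq2, and Atp6v0e passed in DESeq2. Atp6v0d1 also passed in limma without Rragc S74N/+ replicate 3, and Atp6v0b without Rragc +/+ replicate 3. The promoter of Atp6v1f did not hold the motif, and Atp6v1g1 had no promoter entry. With equal library totals 0 of 18 passed by limma, and 0 passed without Rragc +/+ replicate 1, 2 or 4 or Rragc S74N/+ replicate 4 or 5.

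**Figure D5:**
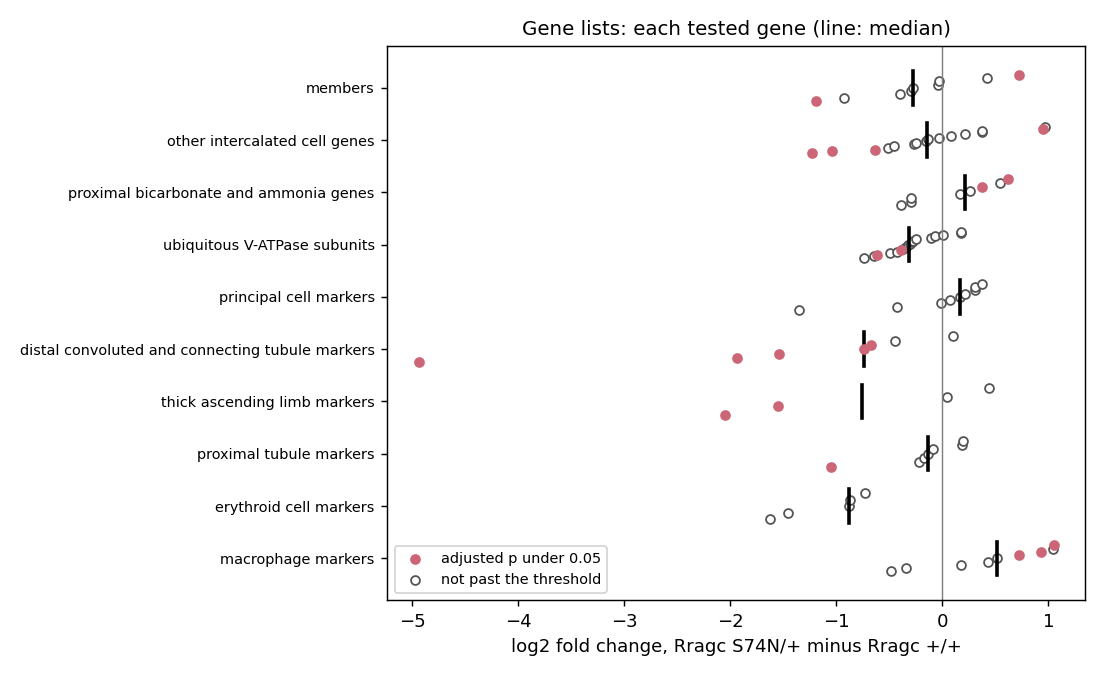
Log2 fold change of each tested gene in the members, 3 lists of related genes and 6 lists of cell type markers, with the median as a line and genes at a limma adjusted p under 0.05 filled. The members spread to both sides of 0, principal cell markers hold no filled point, and the lowest point is Pvalb (-4.93), a marker of the distal convoluted tubule.

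Markers of the cells around intercalated cells were set beside these values. Of 10 principal cell markers 9 were tested and 0 passed in limma (1 with an unadjusted p under 0.05), with a median log2 change of 0.17. Their summed level was 1268 to 3745 normalized counts in Rragc +/+ and 1255 to 3062 in Rragc S74N/+ kidneys. Of 7 markers of the distal convoluted and connecting tubule 5 were lower, against 2.58% of all tested genes. Among them were Pvalb (-4.93), Slc12a3 (-1.94) and Trpm6 (-1.54, limma adjusted p from 1.61e-06 to 0.000867). S100g (-0.44, limma adjusted p = 0.12) and Trpv5 (0.10, 0.88) did not pass, and the change of Trpv5 was above 0. The summed level of the 7 was 11103 to 13428 normalized counts in Rragc +/+ and 5911 to 7836 in Rragc S74N/+ kidneys. Of 4 thick ascending limb markers Umod and Ptger3 were lower. Slc12a1 (0.043, limma adjusted p = 0.91) and Cldn16 (0.44, 0.32) did not pass and had log2 changes above 0. Of 7 proximal tubule markers Slc5a2 was lower and 6 did not pass, with 2 of the 7 log2 changes above 0 and 5 below. The part of these other cell types in the changes of Slc4a1 and Slc26a4 was not tested.

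From mouse to mouse the members did not vary as a unit. After the genotype means were removed, the Pearson correlation of 36 pairs of members over the 10 samples ran from -0.54 to 0.77 with a median of -0.007, and 17 pairs were positive and 19 negative. The most alike pair was Atp6v1b1 and Foxi1 (Pearson r = 0.77, Spearman rho = 0.68), both of them lowest in Rragc S74N/+ replicate 1. These correlations are descriptive, and the points share the scaling of each library. The labels give no batch, but sample titles fall into numbers below and above 200. Slc4a1 was lower in both ranges, by -0.74 in the lower and -1.88 in the upper, and Slc26a4 was higher by 0.67 and 0.80. With that range as a block, Slc4a1 (limma adjusted p = 0.00996) and Slc26a4 (0.039) were again the 2 members that passed.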

How the data were processed

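RNA from 10 whole kidneys (300 ng each) was sequenced with a 3′ mRNA kit by the authors. Per the labels and the study's methods they used FastQC 0.11.7, TopHat2 2.0.10 with Bowtie 1.0.0 and SAMtools 0.1.19 on GRCm39, and counted sense reads with HTSeq 0.6.1 with a GENCODE gene set. The deposited values are a signal, namely read counts that the authors divided by 1 size factor per sample. Low genes are missing by a filter not given in the sources used here (lowest gene mean 4.37). Columns were assigned by sample title and replicates numbered in order of deposit. Genes with at least 5 normalized counts in at least 5 samples were kept (13236 of 13299). log2(value + 1) was fitted with limma 3.58.1 (eBayes with variance trend, R 4.3.3), with Benjamini-Hochberg adjustment over all tested genes. This replaces the count model of the study's methods, since the values are not raw counts.

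Single genes and 6 ratios were also tested by exact two-sided permutation over 252 allocations. In 8 columns whole reads were recovered (100% of values whole within 0.01). edgeR 4.0.16 and DESeq2 1.42.0 were run on these, 4 samples per genotype, as alternatives, the latter calling 1402 genes and the former 851. In Rragc +/+ replicate 5 and Rragc S74N/+ replicate 3, 1 read is worth too nearly 1 for the recovery test. The code was tested on simulated data. Other alternatives were scalings, pseudocounts of 0.5 and 5, filters, eBayes settings, a block for the title number and leaving out each sample. Promoters came from RefSeq on GRCm38.p6 and were used for sequence alone. Named genes were the 9 members, genes past the threshold in 3 related lists, the 2 largest changes that did not pass in each, 3 ubiquitous counterpart subunits, up to 3 genes per marker list, and the 5 genes most like the members. Genes added for a count of 5 or fewer, or to name what a list held, were chosen after their values were seen. Members and lists were chosen with earlier results of these data known. Results on some listed genes are not reported here.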

Additional observations from a re-analysis of the deposited data

Results flagged for a closer look

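Dixon's criterion was applied to the 72 groups of 5 samples that 36 results give. A sample far from the rest of its group turned up in 6, against the 3.6 that chance gives at about 1 in 20 groups. Rhcg had 67.0 normalized counts in Rragc S74N/+ replicate 5, against 128 to 152 in the other mutant kidneys. Aqp6 had 159 normalized counts in Rragc S74N/+ replicate 3, against 52.5 to 80.5. The log2 ratio Slc26a4/Slc4a9 was 1.002 in Rragc +/+ replicate 1, against 0.10 to 0.35 in the other wild-type kidneys. The summed principal cell markers reached 3745 normalized counts in Rragc +/+ replicate 3, against 1268 to 1796, and the summed macrophage markers were lowest in Rragc +/+ replicate 2, at 730.3 against 914 to 930.2. The summed erythroid markers were 2739 normalized counts in Rragc S74N/+ replicate 1, against 10933 to 13753 in the rest of its group.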

How the results depend on the processing

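No paired analysis was possible because the labels do not tie any Rragc S74N/+ sample to a Rragc +/+ sample. Slc4a1 kept its direction and its call in every alternative run, and 1 of the 9 members, Slc4a1, passed without the variance trend, with edgeR or limma on the 8 samples with recovered reads, at an adjusted p under 0.01, and with the erythroid sum as a term. The call of Slc26a4 was lost without the trend (limma adjusted p = 0.072), with edgeR (0.085), DESeq2 (0.067) and limma (0.091) on 8 samples and with the erythroid term (0.114). Leaving out 1 sample gave 1 to 2 members. The sign of Atp6v1b1 turned with equal library totals (0.046), with sums without mitochondrial genes (0.0084) and with the erythroid term (0.19), and ran from -0.12 to 0.051 when 1 sample was left out. That of Car2 turned under the same 2 scalings (0.044 and 0.0061) and ran from -0.10 to 0.023. That of Foxi1 turned with the erythroid term (0.40).

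Of the other intercalated cell genes 2 passed with equal library totals, a minimum mean of 50 (which leaves out Oxgr1 and Car15), no trend, edgeR or limma on 8 samples, and 0 at an adjusted p under 0.01 or with the erythroid term (2 to 5 when 1 sample was left out). Of the proximal genes 0 passed without the trend, with edgeR or limma on 8 samples, at 0.01 or with the erythroid term (0 to 2). Of the ubiquitous subunits 0 passed with equal totals, without the trend, at 0.01 or with the erythroid term, 1 with sums without mitochondrial genes and 5 with DESeq2 (0 to 3). Over all genes 391 passed without the trend, 1402 with DESeq2, 187 at 0.01 and 140 with the erythroid term, against 798, and 311 to 902 when 1 sample was left out. The cause of these moves was not tested beyond fewer genes or samples. The differences in log2 ratio ran from 1.72 to 2.06 (Slc26a4/Slc4a1), 0.68 to 1.12 (Slc4a9/Slc4a1), 0.90 to 1.18 (Slc26a4/Slc4a9), 0.44 to 0.71 (Atp6v1b1/Atp6v1b2), -0.035 to 0.077 (Atp6v0d2/Atp6v0d1) and 0.83 to 1.19 (Atp6v1g3/Atp6v1g1) when 1 sample was left out. Foxi1, Slc4a9 and Atp6v0d2 have means under 50 normalized counts and were not tested at that minimum.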

Other observations

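The fit with the erythroid sum as a term, chosen after the data were seen, gave a slope for each gene. Foxi1 rose by 1.199 ± 0.23 (SE) in log2 for each doubling of the summed erythroid markers (limma adjusted p = 0.0051), and 5.34% of all tested genes had a slope past the threshold. Among the other 8 members the slope of Atp6v1b1 was the next largest (0.20, limma adjusted p = 0.27). Without Rragc S74N/+ replicate 1 the slope of Foxi1 was 1.21 ± 0.49 (SE) and did not pass (limma adjusted p = 0.998), and 3 genes passed, so the call rests on that kidney.

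The 6 members with a mean of at least 50 normalized counts were averaged as deviations from the genotype means. The average lay farthest from 0 in Rragc S74N/+ replicates 5 (-0.30) and 3 (0.22). Of the genes that are no member, H1f0, Gm44816, Gm45170, Khnyn and Slc43a2 followed this average most closely over the 10 samples, with Pearson r from 0.91 to 0.95. They were picked by this value from all tested genes, so high values can arise by chance, and a link with the members was not tested. None of these 5 is in the list of other intercalated cell genes.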
